A study of Mus musculus with 7 samples.

Results

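Gamma delta T cells of the mouse seminal vesicle were picked out of single-cell RNA counts from 23 mice by the RNA of their receptor. A cell was taken as a gamma delta T cell when it held at least 500 genes, at most 10% of UMIs (unique molecular identifiers, each counting 1 captured RNA molecule) from mitochondrial genes, at least 2 UMIs over *Cd3d*, *Cd3e* and *Cd3g*, and at least 1 UMI over *Trdc* and *Trdv4*. It further had to hold fewer than 5 UMIs over *Gzma*, *Gzmb* and *Nkg7*, at most 2 over *C1qa*, *C1qb* and *C1qc*, and 0 of *Cd79a*, which set aside cytotoxic lymphocytes, macrophages and B cells. In all, 265 of the 40342 cells that passed the limits on genes and mitochondrial UMIs, from 53352 deposited, met this rule. They were 265 of 739 non-cytotoxic T cells. Another 421 of these held no *Trdc* or *Trdv4* UMI but at least 1 UMI of *Trac*, *Trbc1* or *Trbc2*, and are called alpha beta T cells here; the last 53 held no receptor UMI. Cells with 5 or more UMIs over the cytotoxic genes, macrophage and B cell genes limited in the same way, numbered 405 and are called cytotoxic lymphocytes. No limit on *Cd3* or receptor genes was set for them.

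The mice were male and wild type, and whole seminal vesicles were dissociated and run on droplet libraries. An aging pool held 10 C57BL/6J mice, 2 each at 3 months, 20 months, 20 months with rapamycin, 28 months and 28 months with rapamycin. A diet pool held 8 FVB/NJ mice of about 3 months, 2 each on a control, a caloric restriction, a high fat and a low protein diet. Single-mouse libraries came from 3 further FVB/NJ mice on control, high fat and low protein diets, and from a young (3 months) and an old (18 months) FVB/NJ individual. Inside a pool, the table that held a mouse's cells named its condition. Strain was therefore tied to library set, and these cannot be told apart. Age overlapped between the strains at 3 months, where the aging pool held 2 C57BL/6J mice. Each mouse gave 174 to 9164 passing cells and 971402 to 46333394 UMIs in all.

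In the young and the old individual, *Svs5*, a major secretory protein gene of the seminal vesicle, made up 0.000355% and 0.000304% of UMIs, against 3.46 to 34.1% in every other mouse. A list of 6 epididymis epithelium genes took 4.08% and 7.18% of their UMIs, and at most 0.0601% elsewhere. The labelled tissue was thus not borne out by its defining gene in these 2 mice, so the counts of genes called and the shares by strain are given with and without them; counts of list members and levels are given with them.

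Gamma delta T cells carry a T cell receptor of a gamma and a delta chain in place of the alpha and beta chains of most T cells. Many leave the thymus early in life, settle in skin, mucosa and reproductive tract and stay there. One branch is set to make interleukin 17 (type 17 cells, which respond to interleukins 1, 7 and 23), and another makes interferon gamma (type 1 cells). The gamma chain Vγ6 paired with the delta chain Vδ1, the latter encoded in mouse by *Trdv4*, is the receptor of one such type 17 population of the uterus, testis, lung and skin.

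The pair of segments that recur below are printed from the reference genome, since they define the receptor that these cells were gated or described by. Each run is the long V exon of the GENCODE model on GRCm38, or its last 300 bases where it is longer, 5′ to 3′, and the capitals mark the codon of the conserved cysteine that opens the junction, after which the segment is joined to the rest of the chain. *Trdv4* lies at chr14:54075217-54075515 on the plus strand (299 bases) and *Tcrg-V6* at chr13:19190630-19190929 on the plus strand (300 bases).
Trdv4: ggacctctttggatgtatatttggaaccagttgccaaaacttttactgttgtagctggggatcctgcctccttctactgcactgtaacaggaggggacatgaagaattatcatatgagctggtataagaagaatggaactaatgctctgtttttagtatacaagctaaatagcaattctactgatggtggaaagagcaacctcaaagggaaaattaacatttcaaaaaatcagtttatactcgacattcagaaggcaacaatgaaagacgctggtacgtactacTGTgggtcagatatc
Tcrg-V6: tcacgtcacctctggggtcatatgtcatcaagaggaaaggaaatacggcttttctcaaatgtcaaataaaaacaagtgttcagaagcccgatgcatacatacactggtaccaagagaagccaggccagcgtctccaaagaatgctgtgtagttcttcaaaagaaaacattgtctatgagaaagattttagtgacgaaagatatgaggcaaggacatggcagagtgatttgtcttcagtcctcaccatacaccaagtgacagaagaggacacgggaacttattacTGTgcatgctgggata
The cysteine codon starts at base 285 of the *Trdv4* run and of the *Tcrg-V6* run alike, which leaves 12 and 13 bases of segment before the join. Libraries of this kind read the 3′ end of transcripts, so the V segment of a receptor is caught less often than its constant segment.

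The receptor genes used by the rule describe the cells and carry no test. *Trdc*, the delta constant segment (chr14:54142851-54148868, plus strand), had a UMI in 254 of the 265 cells (95.8%), *Trdv4* in 169 (63.8%) and *Cd3g*, a signalling chain of the receptor complex, in 260 (98.1%). At the edges of the rule, 40 members held exactly 1 UMI of *Trdc* and *Trdv4*, 33 held exactly 2 *Cd3* UMIs and 8 held 4 cytotoxic UMIs. Just outside it were 29 cells with 1 *Cd3* UMI, 78 with 5 or more cytotoxic UMIs, 9 with 3 or more C1q UMIs and 2 with a *Cd79a* UMI. The members held a median of 2405 UMIs and 1053 genes, close to 2601 and 1056 in alpha beta T cells, 2563 and 1122 in cytotoxic lymphocytes and 3079 and 1012 in the other 39198 cells. Of 40164 distinct barcodes, 177 occurred in more than 1 library, and 3 gamma delta cells had such a barcode, none of them gamma delta in both. A doublet score left out 1753 of all cells, 5 of them gamma delta.

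The gamma chain was not part of the rule. *Tcrg-C1*, a gamma constant segment on chromosome 13, had a UMI in 124 gamma delta cells (46.8%), against 2.38% of alpha beta T cells, 10.1% of cytotoxic lymphocytes and 0.0816% of all other cells. The cytotoxic lymphocytes include 78 cells with *Cd3* and a *Trdc* or *Trdv4* UMI. *Tcrg-V6* (Vγ6) had a UMI in 33 cells (12.5%) and in 0 of 421 alpha beta and 0 of 405 cytotoxic cells, which limits the shares of cells with a UMI of it to 0.713% and 0.741% (3 counts of the total) and says nothing of cells that carry the segment with no UMI caught. Other gamma segments were rarer. *Trgv2* had a UMI in 25 cells, *Tcrg-V5* in 8, *Tcrg-V1* in 7 and *Tcrg-V4* in 4. Among delta V segments, *Trdv1*, *Trdv2-1*, *Trdv2-2* and *Trdv3* were at 0 in all 265 cells and *Trdv5* was seen in 2. *Tcrg-V6* was caught in 16.0% of cells with a *Trdv4* UMI and in 6.25% of those without, and *Tcrg-C1* in 58.0% and 27.1%. Cells with more UMIs show more of every gene, so these pairs are a description. The gamma constant segments resemble each other closely, and how reads were divided among *Tcrg-C1*, *Tcrg-C2* and *Tcrg-C4* is uncertain.

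Coreceptor and alpha chain RNA was low in the same cells, whereas beta chain RNA was not. *Cd4* was at 0 in all 265, which limits the share of cells with a captured UMI to 1.13%, not the share of cells that express it, *Cd8a* was seen in 1, and *Foxp3*, the factor of regulatory T cells, in 0. *Trac*, the alpha constant segment, had a UMI in 31 (11.7%) against 63.2% of alpha beta T cells, a contrast partly set by how that class was chosen. *Trbc1* and *Trbc2*, near-identical beta constant segments, had UMIs in 145 and 177 gamma delta cells. A gamma delta cell with beta chain RNA but no caught *Trdc* or *Trdv4* UMI would thus count as an alpha beta T cell. How many such cells that class holds was not tested. The list of 10 alpha beta receptor and coreceptor genes took 1093 CPM (UMIs relative to all UMIs of the class) in gamma delta cells, 1377 CPM in alpha beta T cells and 904 CPM in cytotoxic lymphocytes, with *Trbc2* its most abundant gene in each. The 31 cells with *Trac* held *Cd163l1* in 58.1%, against 67.5% of the 234 cells without it.

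Type 17 genes were seen in most gamma delta cells and in few others. *Cd163l1* (Scart1, a scavenger receptor of type 17 gamma delta cells; chr7:140218267-140231145, plus strand) had a UMI in 176 cells (66.4%), against 2.14% of alpha beta, 0.988% of cytotoxic and 0.115% of other cells. *Blk*, a Src family kinase used in their development, was seen in 33.2%, 1.90% and 0.494% of the 3 lymphocyte classes. *Il23r*, the receptor for interleukin 23, was seen in 21.1%, 1.90% and 0.247%. *Il17a*, the cytokine itself, had a UMI in 56 gamma delta cells (21.1%, 95% Wilson interval 16.6 to 26.4), against 0.950%, 0.247% and 0.0230%. Intervals and limits of this kind cover counting error only. At least 1 of 6 type 17 genes (*Il17a*, *Il17f*, *Il22*, *Il23r*, *Blk*, *Cd163l1*) was seen in 207 of 265 gamma delta cells (78.1%), 5.46% of alpha beta T cells, 1.23% of cytotoxic lymphocytes and 0.495% of other cells. With each cell thinned to 1000 UMIs, which 245 gamma delta cells reached, the shares in the 3 lymphocyte classes were 63.7%, 3.46% and 0.543%. At least 3 of the 6 were seen together in 20.4%, 0.475% and 0.247%. The gamma delta shares do not cover the 78 cells that the rule left out for 5 or more cytotoxic UMIs.

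**Figure D1:**
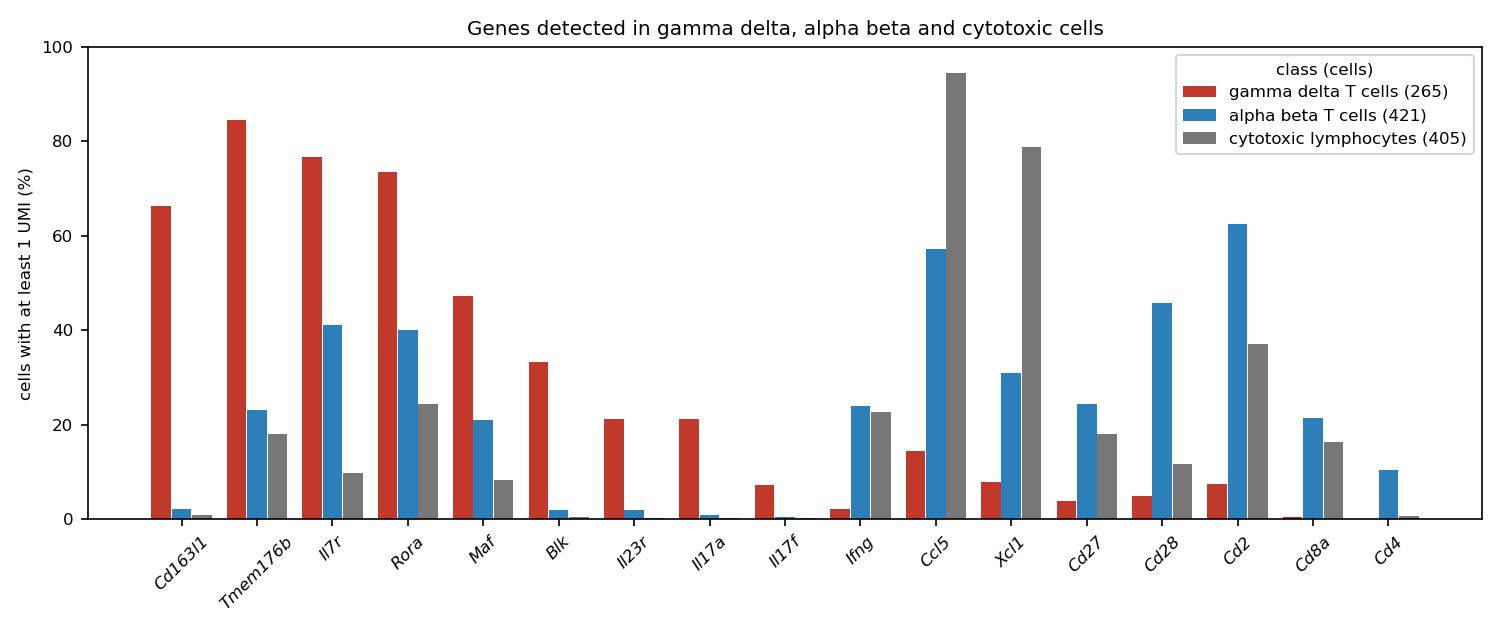
Percent of cells with at least 1 UMI of each of 17 genes in gamma delta T cells, alpha beta T cells and cytotoxic lymphocytes. Gamma delta cells lead for *Cd163l1* (66.4% against 2.14% and 0.988%), and *Ifng* runs the other way (2.26% against 24.0% and 22.7%).

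The members differed in how much cytokine RNA they held. The 214 *Il17a* UMIs came from 12 mice, but 1 cell held 61 of them and the top 5 cells 50.5%. *Il17f*, a second interleukin 17, was seen in 19 cells, 8 of which also held *Il17a*. *Il22* was seen in 4 cells, and 1 of these held 37 of its 44 UMIs. *Ifng*, the type 1 cytokine, was seen in 6 cells (2.26%), against 24.0% of alpha beta T cells, and none of the 6 held *Il17a* or *Cd163l1*. Cells with 5 or more cytotoxic UMIs were outside the rule, and how far this set the share with *Ifng* was not tested. *Ccr6*, a chemokine receptor of many type 17 cells, was at 0 in all 265 cells.

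Over the 15 mice with at least 5 gamma delta cells, the share with a *Cd163l1* UMI ran from 0 through a median of 68.8% to 100%. That of *Il17a* ran from 0 through 23.3% to 43.8%, *Trdv4* from 0 through 63.6% to 100%, and any of the 6 type 17 genes from 20% through 75% to 100%. All 23 mice had at least 1 cell with 1 of these 6 genes. By library set, the share with any of the 6 was 87.0% of 161 cells in the aging pool, 69.6% of 56 in the diet pool, 50% of 10 in the single-mouse diet libraries and 60.5% of 38 for the young and old individuals together. *Trdv4* was seen in 77.6%, 55.4%, 30% and 26.3% of the cells of these sets.

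To ask what sets these cells apart from other T cells of the same organ, the UMIs of each class were summed per mouse and tested with edgeR, mouse being a term of the fit. Sums from fewer cells and sums with less RNA per cell cannot be told apart by such totals. The 15 mice with at least 5 cells of both classes gave gamma delta sums of 5 to 37 cells and 9580 to 149191 UMIs. At this depth the usual filter on low counts kept 628 genes, of which 65 were higher in gamma delta cells (10.4% of those tested) and 35 lower (5.57%) at an adjusted p under 0.05. With scaling by library size in place of TMM the counts were 141 higher and 19 lower, and the median of all genes moved from -0.01 to 0.50 on the log2 scale, so that changes are best read against that median. A second fit took every gene with at least 30 UMIs, which brought in most receptor and cytokine genes: of 6674 genes, 170 were higher (2.55%) and 190 lower (2.85%). A gene that reached 30 UMIs almost wholly through one class or strain was bound to differ, so calls of such genes in this fit are a description. In the first fit, calls of genes that passed its filter through one class or strain are likewise a description. Levels below are CPM, the number of a gene's UMIs relative to all UMIs of the sum, scaled by TMM within the fit named, and differ between the 2 fits (the lowest gamma delta sum of *Tmem176b* is at 253 CPM in the first and 97.4 CPM in the second), so they are to be compared within a fit only. Without the young and old individuals the first fit called 70 genes higher and 41 lower, and the second 159 and 170.

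*Tmem176b*, a membrane channel gene that type 17 lymphocytes express, was the steepest of the genes that were higher in every mouse in the first fit. Its level ran from 253 through a median of 1578 to 2288 CPM in gamma delta cells and from 0 through 198 to 779 CPM in alpha beta T cells. The ranges overlapped, yet gamma delta cells were above in 15 of 15 mice, by 2.84 ± 0.38 on the log2 scale (SE; edgeR adjusted p = 8.1e-05). *Rora*, a nuclear receptor gene of type 17 cells, was at 833 ± 377 against 242 ± 174 CPM (SD, n = 15 mice; log2 difference 1.98 ± 0.31, edgeR adjusted p = 0.000278), again higher in all 15. So were *S100a4*, a calcium-binding protein gene of motile and memory cells, at 828 to 2794 against 63.8 to 1132 CPM (2.10 ± 0.36), and *Cd69*, which holds T cells in tissue, at 724 ± 477 against 183 ± 154 CPM (1.94 ± 0.23). The others of this kind were *Cd164* (1.71), *Sptssa* (1.34), *Tagln2* (0.93) and *Rhoa* (0.59). Among the 628 genes of this fit, none passed the test and was lower in every mouse.

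Of the 27 type 17 genes listed for this report, 6 passed the usual filter, and all 6 were higher in gamma delta cells, as were 10.4% of all genes of that fit. Besides *Tmem176b* and *Rora* these were *Tmem176a* (2.82), *Ramp1* (2.08), *Maf*, a transcription factor that type 17 gamma delta cells need (1.80), and *Il7r*, the interleukin 7 receptor (1.75). A gene could pass that filter through gamma delta sums alone, so the count of 6 is a description too. In the fit with genes of at least 30 UMIs, 19 of the 24 tested were higher, where 2.55% of all genes were, 0 lower, and 5 (*Kcnk1*, *Sox4*, *Ahr*, *Batf*, *Stat3*) did not pass. Of the 24, 13 held at least 30 UMIs in alpha beta sums alone, and 9 of these were higher. Of the others, *Sox4* reached 30 UMIs only over both classes together. The rest, *Il17a*, *Cd163l1* and *Il22* among them, entered this fit through gamma delta UMIs. Those with almost all their UMIs there were bound to be higher, so the count of 19 describes the list and carries no weight as a test.

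**Figure D2:**
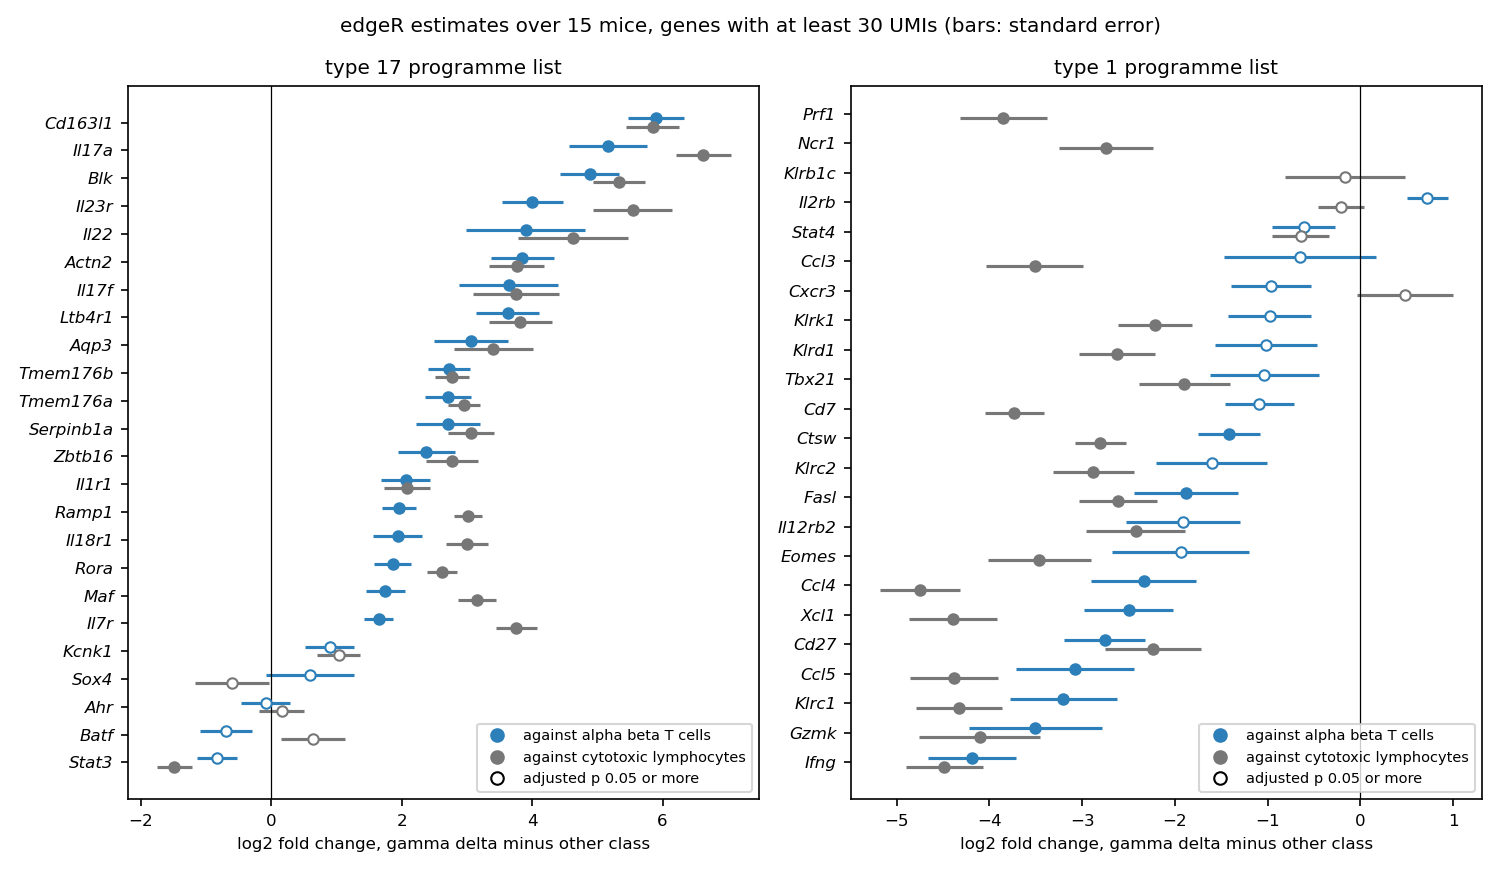
Log2 difference (edgeR, genes with at least 30 UMIs; bars are SE) of gamma delta cells against alpha beta T cells and against cytotoxic lymphocytes for the type 17 and type 1 lists; open points did not pass an adjusted p of 0.05. Most type 17 genes lie to the right of 0, 19 of 24 passing against alpha beta T cells, and most type 1 genes lie to the left.

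In that fit *Cd163l1* stood at 0 to 781 CPM in gamma delta sums, with a median of 413, and at 0 to 64.0 CPM in alpha beta sums, with a median of 0. It was higher in 14 of 15 mice (log2 difference 5.90, edgeR adjusted p = 1.1e-10). *Il17a* ran from 0 through 166 to 1204 CPM against 0 through 0 to 74.2 CPM, higher in 12 mice and lower in 1 (5.16, edgeR adjusted p = 1.01e-06). *Blk* was at 136 ± 67.3 against 5.92 ± 16.6 CPM (SD, n = 15), higher in every mouse. These genes were near 0 in most alpha beta sums, and their fold changes depend on the small count that edgeR adds.

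The other type 17 members were grouped by role. Among receptors for the cytokines that drive such cells, *Il23r* (4.01), *Il1r1* (2.06) and *Il18r1* (1.94) were higher, with *Il1r1* at 129 ± 61.4 against 34.9 ± 24.9 CPM. *Zbtb16*, which encodes the transcription factor PLZF of innate-like lymphocytes, was higher by 2.38. Among effector cytokines, *Il17f* (3.64) and *Il22* (3.90, edgeR adjusted p = 0.0121) were called, but the *Il22* call rested largely on 1 cell and DESeq2 gave an adjusted p of 0.955 for it. *Actn2*, a sarcomere protein gene known from type 17 gamma delta cells, was also higher (3.85), as were *Ltb4r1*, a leukotriene receptor gene (3.63), *Aqp3*, a water channel gene (3.06), and *Serpinb1a*, a protease inhibitor gene (2.71).

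**Figure D3:**
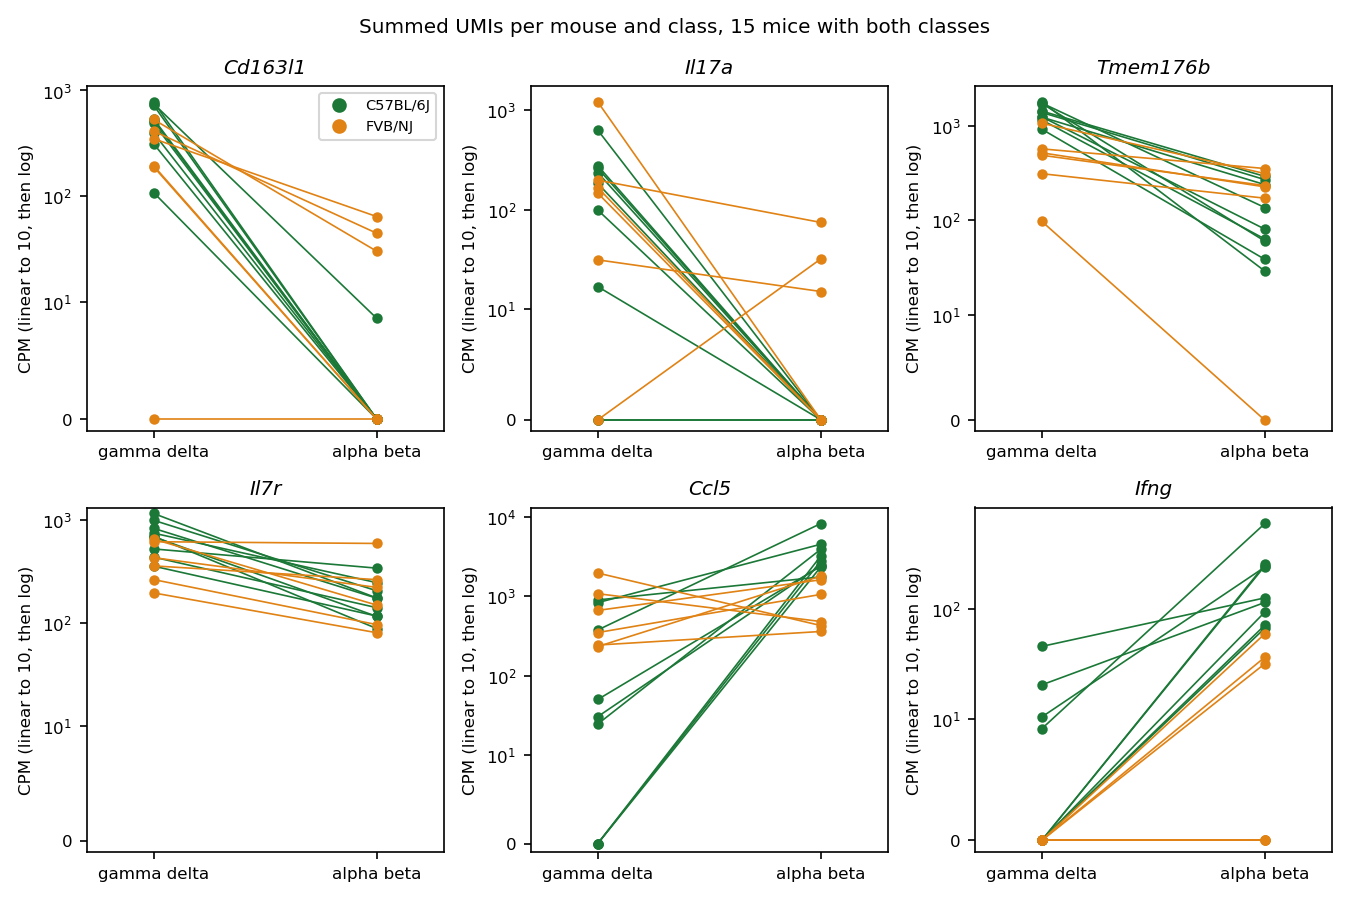
Level (CPM, symmetric log axis, genes with at least 30 UMIs) of 6 genes in gamma delta and alpha beta T cells of the same 15 mice, lines joining the 2 sums of a mouse. *Cd163l1* was higher in gamma delta cells in 14 of the 15 mice and *Il17a* in 12, and *Ifng* was higher in none.

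For the promoters of 2 of these genes, the 250 bases before the RefSeq start on GRCm38.p6 are given 5′ to 3′ on the gene's strand, with capitals at each AGGTCA, the core letters bound by RORα, the product of *Rora*, and other nuclear receptors, or its reverse TGACCT.
Il17a: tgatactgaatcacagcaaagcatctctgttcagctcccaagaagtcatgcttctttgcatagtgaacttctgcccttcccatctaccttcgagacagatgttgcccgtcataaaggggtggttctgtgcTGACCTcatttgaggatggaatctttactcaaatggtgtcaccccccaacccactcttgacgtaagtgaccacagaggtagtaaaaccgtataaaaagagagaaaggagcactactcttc
Il23r: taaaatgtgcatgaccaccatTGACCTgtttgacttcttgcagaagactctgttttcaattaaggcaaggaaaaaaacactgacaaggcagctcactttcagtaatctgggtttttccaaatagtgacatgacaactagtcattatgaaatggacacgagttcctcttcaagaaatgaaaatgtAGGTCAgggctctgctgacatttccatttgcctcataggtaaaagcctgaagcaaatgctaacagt
The *Il17a* window is chr1:20730655-20730904 on the plus strand, with 1 match starting 120 bases before the start. The *Il23r* window is chr6:67491856-67492105 on the minus strand, with matches 229 and 66 bases before it. Of the type 17 list, 22 genes had a window and 7 of these held the letters on either strand (31.8%), against 14% of 32851 windows and 15.8% of 27025 genes. A match describes letters and is not a site.

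Of 20 type 1 members tested in the fit with genes of at least 30 UMIs, 9 were lower in gamma delta than in alpha beta T cells (2.85% of all genes), 0 higher (2.55%), and 11 did not pass. All 20 held at least 30 UMIs in alpha beta sums alone but 8 did so in gamma delta sums, of which 4 were lower, so this count too is a description. *Ifng* ran from 0 through 0 to 45.9 CPM in gamma delta sums and from 0 through 72.1 to 613 CPM in alpha beta sums, higher in gamma delta cells in 0 mice and lower in 12 (-4.18, edgeR adjusted p = 1.01e-06). *Cd27*, a costimulatory receptor gene that marks the interferon branch of gamma delta cells, was at 10.3 ± 16.2 against 70.7 ± 26.7 CPM and lower in 15 of 15 mice (-2.76). *Gzmk*, a granzyme (-3.50), *Klrc1*, an inhibitory receptor of cytotoxic cells (-3.20), *Ccl4* (-2.34), *Fasl* (-1.88) and *Ctsw* (-1.42) also fell. *Ccl5* and *Xcl1*, chemokines of cytotoxic cells, fell in both fits, by 2.91 and 2.24 in the first, where *Ccl5* ran from 0 through 424 to 2286 CPM against 496 through 2899 to 10357 CPM. *Ccl5* was lower in 13 of 15 mice. In both caloric restriction mice it was higher in gamma delta cells, at 1962 against 428 and 1079 against 481 CPM with genes of at least 30 UMIs, and the difference of the contrast between strains was -4.25 in the first fit (edgeR adjusted p = 0.0505) and -4.36 in the second (adjusted p = 0.0309). The limit on *Gzma*, *Gzmb* and *Nkg7* applied to both classes alike, but it took cells rich in cytotoxic RNA out of each. It left 78 cells with *Cd3* and a *Trdc* or *Trdv4* UMI outside the gamma delta class. The falls of type 1 genes thus describe non-cytotoxic cells only, and how far the rule set them was not tested. *Il2rb*, shared with the receptor for interleukin 15, was the one type 1 member called higher, in the first fit (0.83, edgeR adjusted p = 0.0122).

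Of 10 genes for the alpha beta receptor and its coreceptors, 7 were lower in the fit with genes of at least 30 UMIs (2.85% of all genes), among them *Cd8a* (-5.16), *Cd4* (-4.35), *Cd6* (-3.52), *Cd28* (-3.25) and *Trac* (-2.64, partly set by the class rule). Apart from *Trac*, these entered that fit through alpha beta UMIs (47 to 0 for *Cd4*, 142 to 1 for *Cd8a*) and were bound to be lower; of the 2 list genes in the first fit, 0 were called. Of 12 signalling genes of the receptor 1 was higher, 4 were lower (*Cd2*, *Lck*, *Ptprc* and *Skap1*) and 7 did not pass. *Cd2*, an adhesion receptor, fell by 3.60 on the log2 scale, at 27.9 ± 35.3 against 325 ± 177 CPM, and *Lck*, the kinase that starts receptor signalling, fell by 2.35. *Cd247*, the zeta chain of the receptor complex, rose by 1.52 and *Tcrg-C1* by 4.77. *Ptprc* (CD45) was lower by -0.77, but with library-size scaling the value was -0.23 and the call was lost.

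Cytokine, receptor and surface genes moved both ways in the fit with genes of at least 30 UMIs. Of 23 cytokine genes 7 were higher and 5 lower, of 20 cytokine and chemokine receptor genes 7 were higher and 2 lower, and of 13 activation and checkpoint genes 4 were higher and 4 lower, with 11, 11 and 5 not passing, beside 2.55% and 2.85% of all genes. Some of these genes are also in the type 17 and type 1 lists. *Tnf* was at 117 ± 113 against 32.0 ± 27.3 CPM (1.78, edgeR adjusted p = 0.00232), *Csf2*, encoding GM-CSF, at 46.2 ± 44.8 against 18.7 ± 49.8 CPM (2.16, adjusted p = 0.0395; DESeq2 0.113), and *Tnfsf11*, encoding RANKL, at 102 ± 85.0 against 34.1 ± 42.1 CPM (1.74). *Ltb* (1.49) and the homing receptors *Ccr2* (2.72, higher in 15 of 15 mice) and *Cxcr6* (1.57) were higher, as was the inhibitory receptor *Pdcd1* (1.88). *Tnfrsf4* (OX40) fell by 5.45 and *Ctla4* by 3.08, both known from regulatory T cells, and the other lower genes of these lists were *Tnfsf8*, *Il1rl1*, *Il21r*, *Tnfrsf18* and *Cd40lg* beside the type 1 chemokines and *Ifng*. *Foxp3* was seen in 23 of the 421 alpha beta cells. *Itgae*, the CD103 integrin of epithelial T cells, fell by 1.99 while *Cd69* and *Cd44* rose, but without the young and old individuals *Itgae* stood at -1.84 and was not called (edgeR adjusted p = 0.104).

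Of 19 dissociation stress genes edgeR called 0 against alpha beta T cells, and their median of 0.01 lay beside -0.01 for all genes tested. All 6 *Svs* genes, secretory protein genes of the epithelium, were lower in gamma delta cells, with a median of -3.61. They took a median of 1.303% of gamma delta UMIs against 23.9% of alpha beta UMIs over the 15 mice, lower in 11. With cells of over 10% *Svs* UMIs left out (7 gamma delta, 30 alpha beta, 32 cytotoxic) 72 genes were higher and 32 lower, and *Svs5* went from -3.57 (edgeR adjusted p = 0.0358) to -0.16 (0.483). Those 7 cells held 112202 of the 122218 *Svs* UMIs of gamma delta cells. Whether free secretory RNA bears on any other call was not tested.

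Markers of other lymphocytes and leukocytes were also looked for in the 265 cells. Of natural killer genes, *Ncr1* was seen in 7 cells, *Klrb1c* in 11 and *Tyrobp* in 17, and the list of 10 took 184 CPM, against 1335 CPM in cytotoxic lymphocytes, 95.2 CPM in alpha beta T cells and 86.3 CPM in cells outside these classes. By library set it took 94.5 CPM in gamma delta cells of the aging pool, 318 CPM in the diet pool, 254 CPM in the single-mouse diet libraries and 208 CPM in the young and old individuals. *Fcer1g* was its most abundant gene over all 265 cells and in the diet pool, and *Tyrobp* in the aging pool, with *Klra8* at 0 in all 265. Of 8 genes of group 2 innate lymphoid cells, *Il5*, *Il13* and *Il9r* were at 0 and the sum was 130 CPM, most of it *Calca*. This list took 122 CPM in alpha beta T cells, 110 CPM in cytotoxic lymphocytes and 43.6 CPM in other cells. In gamma delta cells it took 178 CPM in the aging pool and 59.2 CPM in the diet pool. It took 0 CPM in the single-mouse diet libraries and 170 CPM in the young and old individuals. The 10 macrophage genes summed to 495 CPM, of which *Apoe* gave 408 UMIs, with *Fcgr1* and *Mrc1* at 0. They took 621 CPM in alpha beta T cells, 739 CPM in cytotoxic lymphocytes and 2498 CPM in other cells. The 7 B cell genes summed to 180 UMIs (191 CPM), led by *Cd37*, with *Ms4a1* and *Pax5* at 0. They took 711 CPM in alpha beta T cells, 128 CPM in cytotoxic lymphocytes and 280 CPM in other cells.

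Against cytotoxic lymphocytes, which include natural killer and cytotoxic T cells, the same gamma delta cells were set in 15 mice. The cytotoxic class is not free of gamma delta cells. Of its 405 cells over all mice, 78 held at least 2 *Cd3* UMIs and a *Trdc* or *Trdv4* UMI. This comparison shares its gamma delta cells with the one above, and genes linked to the cytotoxic rule were bound to differ. Of 709 genes, 78 were higher (11%) and 57 lower (8.04%). Without the young and old individuals these were 69 and 54. With library-size scaling they were 98 and 18, and the median of all genes was 0.35. With cells of over 10% *Svs* UMIs left out they were 84 and 77. The 6 *Svs* genes had a median of -2.88 in the first fit, where *Svs1* was called lower. With genes of at least 30 UMIs, *Svs3a* and *Svs5* were called lower as well. With genes of at least 30 UMIs, 198 of 6684 were higher (2.96%) and 284 lower (4.25%), and without those 2 mice 190 and 200. Of the type 17 list, chosen and filtered as above, 19 of 24 tested were higher and *Stat3* was lower (-1.48). Of the type 1 list 19 of 23 were lower, among them *Prf1* (-3.85), *Eomes* (-3.46), *Klrd1* (-2.62) and *Tbx21* (-1.90; -1.60 and edgeR adjusted p = 0.0682 without those 2 mice). Of these 23 genes 21 held at least 30 UMIs in cytotoxic sums but 8 did so in gamma delta sums, of which 6 were lower, so this count is a description as well.

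*Ramp3*, which pairs with the calcitonin-like receptor to bind adrenomedullin and related peptides, showed the largest rise among genes higher in every mouse. It ran from 344 through 1021 to 1815 CPM in gamma delta cells and from 0 through 59.5 to 245 CPM in cytotoxic lymphocytes. The ranges did not overlap (log2 difference 3.84 ± 0.23 SE, edgeR adjusted p = 8.9e-10, higher in 15 of 15). *Ramp3* was low in most cytotoxic sums and passed the filter on low counts largely through gamma delta sums, so its values are a description. *Ramp1*, which turns the same receptor into that for CGRP, was at 683 ± 285 against 77.9 ± 47.9 CPM (3.08 ± 0.19). Being low in cytotoxic sums, *Ramp1* passed the filter largely through gamma delta sums like *Ramp3*, and its values are a description. Both were also higher than in alpha beta T cells, *Ramp3* by 1.67 ± 0.38. *Calcrl*, the receptor they pair with, had a UMI in 4 gamma delta cells (1.51%), against 2.61% of alpha beta, 3.46% of cytotoxic and 4.54% of other cells.

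*Il7r* was at 821 ± 304 against 59.4 ± 56.5 CPM (3.78 ± 0.34), and its ranges of 438 to 1556 and 0 to 172 CPM did not overlap either. Like *Ramp3*, it passed the filter on low counts largely through gamma delta sums, so its values are a description. The other genes that rose in every mouse and lead the order were *Emb*, an adhesion protein gene (3.16), *Tmem64* (3.12), *S100a4* (2.94), *Tmem176b* (2.87), *Rora* (2.69), *Selenop*, encoding a selenium carrier (2.20), *Uhrf2* (1.95), *Cxcr6* (1.83), *Cd164* (1.63), the kinase gene *Pim1* (1.49), *Stk24* (1.45) and *Sptssa* (1.42). The falls in every mouse were led by *Ccl5*, at 622 ± 699 against 7224 ± 2558 CPM (-4.26), and *Xcl1* (-4.26). They were followed by *Fcer1g*, a signalling chain of natural killer cells (-3.72), *Cd7* (-3.60), *Ctsw* (-2.70), *AW112010* (-2.60), *Litaf* (-1.81), the phosphatase gene *Dusp2* (-1.66), *Neurl3* (-1.64) and the phosphatase gene *Ptpn22* (-1.28). Genes among these rises and falls that passed the filter through one class are a description likewise. In the fit with more genes, *Icos*, a costimulatory receptor, was at 242 ± 94.4 against 26.2 ± 23.1 CPM (3.03) and *Areg*, a growth factor of tissue repair, was higher (2.21; DESeq2 adjusted p = 0.309). Of the 19 stress genes 5, *Dnajb1*, *Dnaja1*, *Atf3*, *Hspa1b* and *Hsp90aa1*, were lower in the first fit, where 8.04% of all genes were, and 0 higher, and the part of dissociation in this contrast was not tested.

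Within the gamma delta cells, those with and without a *Trdv4* UMI were compared in the 6 mice with at least 5 of each. Of 352 genes edgeR called 0 higher (0%) and 0 lower (0%), and 25 had an unadjusted p under 0.05. DESeq2 called 0 of 12069 genes, with 47 at an unadjusted p under 0.05. *Ramp3* was at 992 ± 436 against 594 ± 344 CPM with genes of at least 30 UMIs (SD, n = 6 mice; edgeR adjusted p = 0.715). Per cell, a *Cd163l1* UMI was seen in 79.9% of cells with *Trdv4* and 42.7% of those without, *Blk* in 40.2% and 20.8%, *Il23r* in 27.2% and 10.4%, and *Il17a* in 26.6% and 11.5%, a description that does not correct for UMIs per cell or library set.

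The number of gamma delta cells was next set against the design. In the C57BL/6J mice they made up from 0.619% through a median of 2.85% to 7.33% of all cells, and in the FVB/NJ mice from 0.0544% through 0.445% to 2.47%. The ranges overlapped, but the means of 3.31 ± 2.18% (SD, n = 10) and 0.684 ± 0.694% (n = 13) differed (2-sided permutation test, p = 0.0001; 0.0004 adjusted over 4 share comparisons). With the young and old individuals left out, the FVB/NJ mean was 0.771% (permutation p = 0.00044). Within the FVB/NJ mice alone, the diet pool held 0.376 to 2.47% and the 3 single-mouse diet libraries 0.0544 to 0.130%, so the share also moved with library set.

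**Figure D4:**
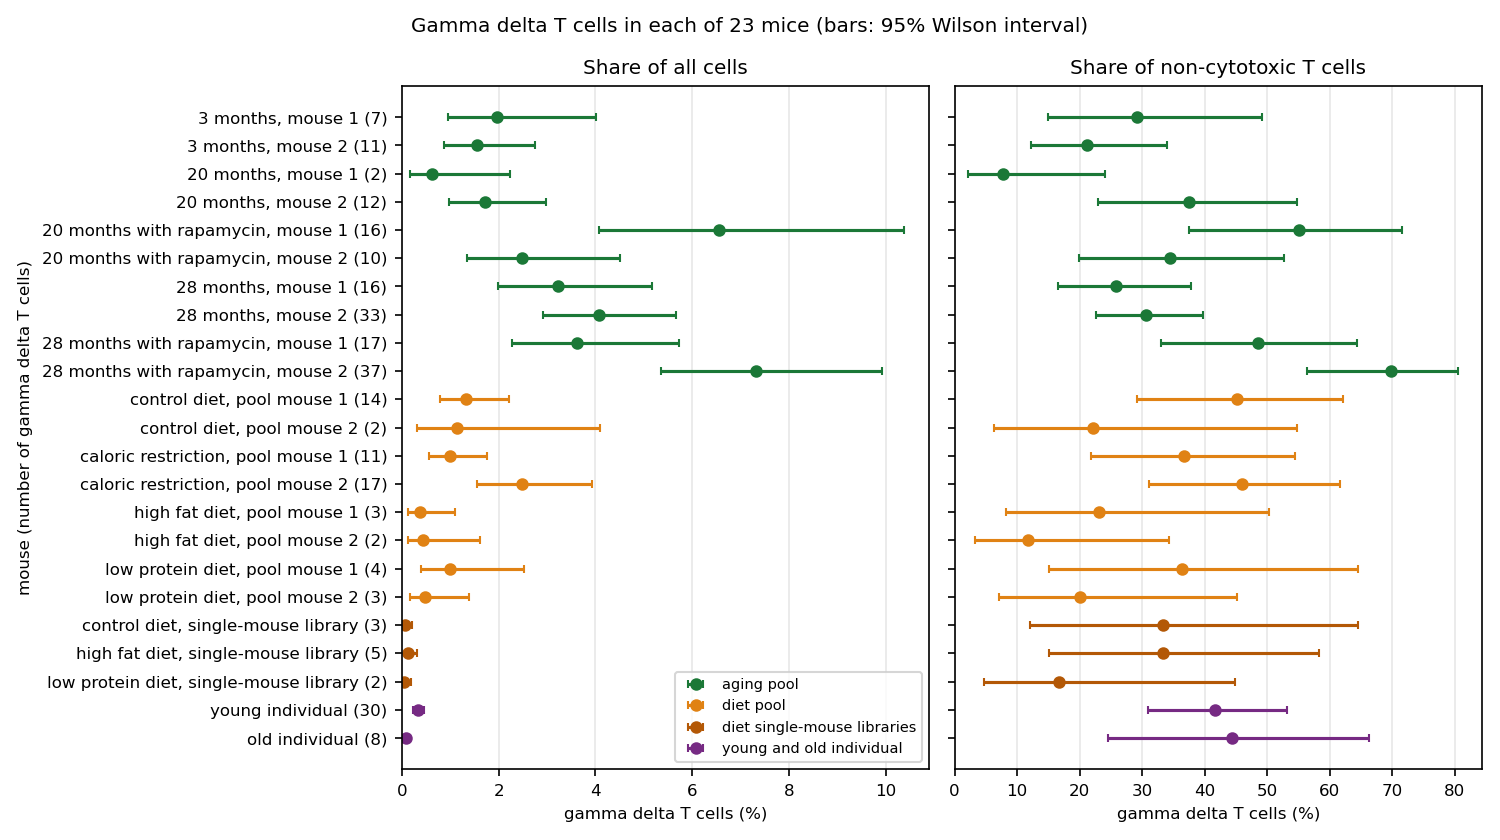
Gamma delta T cells as a percent of all passing cells and of non-cytotoxic T cells in each of the 23 mice, with 95% Wilson bars that cover counting error only. The share of all cells is higher in the aging pool (0.619 to 7.33%) than in the single-mouse diet libraries (0.0544 to 0.130%), whereas the share of T cells overlaps between sets.

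As a share of non-cytotoxic T cells the strains stood at 36.0 ± 17.9% and 32.3 ± 12.4% in mice with at least 10 such cells, a difference of 3.71 (2-sided permutation p = 0.587), and without the young and old individuals the FVB/NJ mean was 29.9% (exact permutation p = 0.408). With at least 2 receptor UMIs required the difference was 8.95 (permutation p = 0.144), and with gamma delta cells of 0 *Trac* alone it was -0.786 (permutation p = 0.895). The young individual stood at 41.7% and the old at 44.4%. In the aging pool the shares were 29.2% and 21.2% at 3 months, 7.69% and 37.5% at 20 months, 25.8% and 30.6% at 28 months, 55.2% and 34.5% at 20 months with rapamycin, and 48.6% and 69.8% at 28 months with rapamycin. The 8 mice of 20 and 28 months averaged 38.7 ± 19.1% and the 2 of 3 months 25.2 ± 5.67% (2-sided exact permutation p = 0.356, adjusted 0.474; the smallest possible is 0.0444). Without the rapamycin mice that difference was 0.228. The 4 mice with rapamycin averaged 52.0 ± 14.7% and the 4 of the same ages without it 25.4 ± 12.7%, a difference of 26.6 percentage points that did not pass (2-sided exact permutation p = 0.0571, adjusted 0.114; smallest possible 0.0286). The rapamycin values lay above all 4 values without it in 3 mice, and the remaining one, 34.5%, lay below 37.5%. With differences taken within age and mouse number, 3 of 4 pairs were positive (47.5, 22.8 and 39.3) and 1 was -3.02 (exact p = 0.25, smallest possible 0.125). Mice that share a number are separate animals, so this pairing is by label only. The diet groups held 2 or 3 mice of 2 library sets, and 2 to 17 gamma delta cells per mouse, and were not tested.

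Gene levels in gamma delta cells were compared between 9 C57BL/6J and 6 FVB/NJ mice with at least 5 cells each. Since strain and library set cannot be told apart, the values describe these groups of libraries, and for the steepest genes the 2 C57BL/6J mice of 3 months are set beside the FVB/NJ mice, 5 of which were of about that age. Of 702 genes 15 were higher in C57BL/6J (2.14%) and 2 lower (0.285%); with genes of at least 30 UMIs, 19 of 3237 were higher (0.587%) and 15 lower (0.463%). With the young and old individuals left out, the first counts were 20 and 7 and the second 7 and 9. With library-size scaling 6 and 0 passed, and the median of all genes was 0.27.

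*BC004004*, a gene of little known function, was the steepest rise: 232 to 567 CPM in C57BL/6J (median 386) and 0 to 60.7 CPM in FVB/NJ (median 28.2), with no overlap (log2 difference 3.27 ± 0.41 SE, edgeR adjusted p = 0.000166). It was near 0 in FVB/NJ sums and passed the filter on low counts through C57BL/6J sums, so its values are a description. With genes of at least 30 UMIs, the 3 month C57BL/6J mice stood at 306 and 296 CPM of it, and the highest FVB/NJ mouse at 47.9 CPM. *Ubb*, a ubiquitin gene, was at 6617 ± 1172 against 1813 ± 719 CPM (SD, n = 9 and 6; 1.84, edgeR adjusted p = 0.000166). *Cd69* was at 1198 ± 358 against 286 ± 193 CPM (2.19, edgeR adjusted p = 0.0025), every C57BL/6J mouse above every FVB/NJ mouse. In the fit with more genes the 3 month mice stood at 3973 and 4836 CPM of *Ubb*, with at most 2492 CPM in FVB/NJ, and at 645 and 553 CPM of *Cd69*, with at most 334 CPM. *Fam107b* (1.70), *Srsf7* (1.44) and *Jund* (0.99) separated the mice in the same way. *Jund* was the one of 19 dissociation stress genes called here (2.14% of all genes were higher). Those 19 took 18596 CPM in gamma delta cells of the aging pool, 10158 CPM in the diet pool, 4390 CPM in the single-mouse diet libraries and 17984 CPM in the young and old individuals, and their part in the strain results was not tested. *Cyth1* (547 ± 342 against 72.3 ± 91.3 CPM), *Satb1*, a chromatin organiser of T cells (1.83), *Map3k8*, a kinase gene of inflammatory signalling (1.71), *H2-Q4* (356 ± 138 against 143 ± 40.5 CPM), *Klf6* (1.25) and *Tmem176a* (1.27) were also called, with ranges that overlapped. Without the young and old individuals *Cyth1* (edgeR adjusted p = 0.0582), *Satb1* (0.0507), *Map3k8* (0.0567) and *H2-Q4* (0.0799) were no longer called. *H2-Q4* is one of several like class I genes that vary between strains, and reads of FVB/NJ mice were matched to a C57BL/6J genome, so its value is uncertain. The 2 lower genes were *Hmgn1* (-1.60) and *AW112010* (-1.40), neither of which passed with library-size scaling (edgeR adjusted p = 0.154 and 0.277).

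Of the type 17 list in the fit with more genes, 2 of 23 tested were higher in C57BL/6J, *Tmem176b*, which was also called in the first fit (1.18), and *Actn2*, and 0 lower. Of all genes of that fit, 0.587% were higher and 0.463% lower. *Actn2* (chr13:12269426-12340760, minus strand) ran from 113 through 222 to 317 CPM in C57BL/6J and from 0 through 0 to 15.5 CPM in FVB/NJ (136 and 158 CPM in the C57BL/6J mice of 3 months). With 101 of its UMIs in C57BL/6J and 1 in FVB/NJ, it entered the fit through the strain where it was high, and its values are given as a description. It had a UMI in 73 of 161 cells of the aging pool, 1 of 56 of the diet pool, 0 of 10 and 0 of 38 elsewhere. *Il7r* (0.51, edgeR adjusted p = 0.288), *Rora* (0.37, adjusted p = 0.613) and *Ramp1* (0.18, adjusted p = 0.839) did not pass. *Pdcd1* ran the other way, at 18.5 to 121 CPM in C57BL/6J and 202 to 468 CPM in FVB/NJ (-2.27, edgeR adjusted p = 0.00633), and its share of cells with a UMI was 11.8% in the aging pool, 39.3% in the diet pool, 70% in the single-mouse diet libraries and 39.5% for the young and old individuals together. Without those 2 mice *Pdcd1* stood at -1.98 and was not called (edgeR adjusted p = 0.0532). *Gdpd3*, a lipid enzyme gene, was at 1.37 ± 4.11 against 231 ± 117 CPM. Smooth muscle genes were lower in C57BL/6J sums in 4 of 6 cases, where 0.463% of all genes of that fit were lower (*Acta2*, *Tagln*, *Tpm2*, *Myh11*); *Tpm2* and *Myh11* were not called without the young and old individuals (edgeR adjusted p = 0.095 and 0.138). *Col3a1*, a collagen gene of fibroblasts, was lower too, at 13.01 ± 24.0 against 243 ± 381 CPM (-4.36), and was not tested without those individuals. *Igkc*, an antibody light chain gene of B and plasma cells, was higher, at 67.4 ± 41.9 CPM against 0 in all 6 FVB/NJ sums, having entered the fit through C57BL/6J UMIs, and was not called without those 2 mice (edgeR adjusted p = 0.0755). These are not genes of T cells, they move with strain beside the genes above, and their part in those results was not tested.

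**Figure D5:**
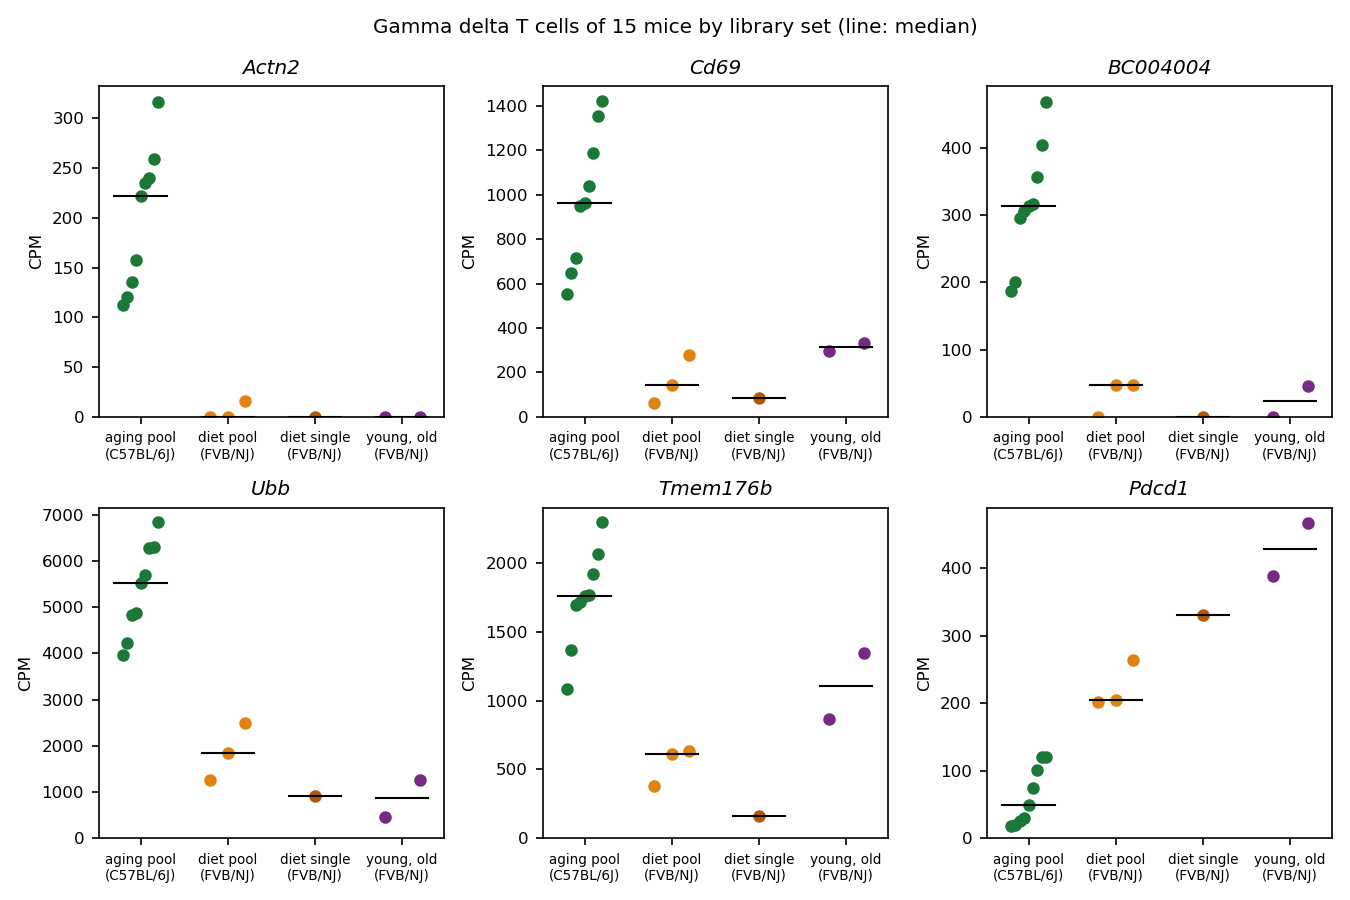
Level of 6 genes in the gamma delta sums of 15 mice by library set (CPM, genes with at least 30 UMIs; points are mice). *Actn2* lies at 113 to 317 CPM in the aging pool and at 0 to 15.5 CPM in the diet pool, and *Pdcd1* is lowest in the aging pool (18.5 to 121 CPM).

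Alpha beta T cells of the same 15 mice were put through the same comparison, in which 12 of 1126 genes were higher in C57BL/6J (1.07%) and 16 lower (1.42%). *Ubb* (1.69, edgeR adjusted p = 0.00169), *BC004004* (2.17, adjusted p = 0.00756) and *Jund* (0.80, adjusted p = 0.0478) were called there too, *Cd69* was at 1.76 (adjusted p = 0.0558), and *Fam107b* (0.07), *Satb1* (0.03) and *Tmem176b* (-0.94) were not called. Without the young and old individuals 4 were higher and 3 lower, and *Jund* was not called (edgeR adjusted p = 0.178). Whether the contrast of gamma delta with alpha beta cells differed between strains was tested directly, and the log2 difference of gamma delta minus alpha beta cells was higher in C57BL/6J for 8 of 628 genes (1.27%) and lower for 5 (0.796%), with its sign counted. With genes of at least 30 UMIs, it was higher for 4 of 6674 (0.0599%), namely *S100a4*, *Tmem176a*, *Tmem176b* and *Cd163l1*, and lower for 13 (0.195%). Without the young and old individuals, which leaves 4 FVB/NJ mice, 2 (*Ramp1* and *Sik1*) and 0 passed in the first fit, and 0 and 3 in the second. For *Tmem176b* it was higher by 2.41 (edgeR adjusted p = 0.0366; 2.53 and 0.0935 without them): mean levels were 1857 against 162 CPM in C57BL/6J, higher in 9 of 9 mice, and 808 against 327 CPM in FVB/NJ, higher in 6 of 6.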

How the data were processed

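Counts of UMIs per gene and cell were deposited by the authors for 7 droplet libraries, 2 of them split by multiplexing tags into tables of single mice (10 and 8). The submitters' notes name Seurat and the mm10 build; per the file headers Cell Ranger made the counts. All 23 tables were read over the 30406 genes they share; 0 columns belonged to other samples. The members, lists and comparisons were chosen with earlier results of these data known. Some genes of the lists are not reported here.

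Cells were gated as described above. Doublets were left in the main results; in an alternative the cells with the highest simulated-doublet scores in each library were left out. Counts were summed per mouse and class (at least 5 cells) and tested with edgeR 4.0.16 (quasi-likelihood, TMM, filterByExpr, Benjamini-Hochberg) in R 4.3.3, with the mouse as a block between classes of the same mice, which pairs them by animal. Depth was 9580 to 149191 UMIs per gamma delta sum. Shares were compared by permutation tests (exact, or 100000 resamples) in scipy 1.17.1. The script was tested on simulated data. Mice of a group are separate animals. Named genes were members of the receptor, type 17 and type 1 lists, and the 15 largest rises and 10 largest falls that moved one way in every mouse (between strains, the 10 largest each way); other named genes were chosen after their values were seen. The fits with genes of at least 30 UMIs, without *Svs* genes or *Svs*-rich cells, and by strain within classes were added after the data had been seen. DESeq2 1.42.0, other gates, filters and scalings were tried as alternatives.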

Additional observations from a re-analysis of the deposited data

Results flagged for a closer look

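Among 26 groups of 4 to 10 mice checked for a sample far from the rest, 3 held one; chance flags about 1 in 20 groups. In the diet pool, mouse 2 on caloric restriction had 2.47% gamma delta cells among all its cells, the highest of 8 mice. Of the 6 FVB/NJ mice with at least 5 gamma delta cells, mouse 1 on the control diet in the pool had the highest share of these cells with an *Actn2* UMI, 7.14%. All others of the 6 were at 0, so any mouse with a UMI was bound to be flagged. The chance rate above does not hold for that group. The single-mouse high fat library had the lowest share of cells with any of 6 type 17 genes, 20% of 5 cells.

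For 13 genes the contrast of gamma delta with alpha beta T cells differed between C57BL/6J and FVB/NJ mice by the test of the difference (edgeR, adjusted p from 0.0366 to 0.0489). With its sign counted, the log2 difference of gamma delta minus alpha beta cells was higher in C57BL/6J for *Tmem176a* by 2.49 on the log2 scale, *Tmem176b* by 2.41, *S100a4* by 2.18, *Hilpda* by 2.02, *Tmem64* by 1.99, *Uhrf2* by 1.84, *Fam107b* by 1.79 and *Ramp1* by 1.78. The strain difference was -2.53 for *Cd52*, a surface glycoprotein of lymphocytes, -1.88 for *Rps27l*, -1.58 for *B2m*, the light chain of class I molecules, -1.19 for *Sri* and -1.09 for *Atp5f1*. *Cd52* averaged 1489 CPM in gamma delta and 7141 CPM in alpha beta cells of C57BL/6J, where 0 of 9 mice had more in gamma delta cells, and 3600 and 2421 CPM in FVB/NJ, where 5 of 6 had more. *B2m* averaged 1927 and 4468 CPM in C57BL/6J and 3676 and 2322 CPM in FVB/NJ. Without the young and old individuals 1 of the 13, *Ramp1* (1.92, edgeR adjusted p = 0.0429), was called, and the other values kept their direction, *Tmem176b* at 2.53 (0.0935) and *Cd52* at -2.23 (0.15) among them. Strain and library set cannot be told apart in these values.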

How the results depend on the processing

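Few cells limit the results: gamma delta sums held 5 to 37 cells per mouse, so low genes were tested only with the looser filter. Genes higher and lower than in alpha beta T cells (100 in all) numbered 160 with library-size scaling, 440 with no filter, 295 with DESeq2, 66 with no mitochondrial limit and 360 with genes of at least 30 UMIs; against cytotoxic lymphocytes (135) 628 with no filter, 378 with DESeq2 and 482 with at least 30 UMIs. By *Trdv4* (0), 1 passed with library-size scaling and 33 with no filter; at least 10 cells per mouse could not be fitted. By strain (17), 6 passed with library-size scaling, 183 with no filter, 41 with DESeq2, 9 with cells of 0 *Trac*, 29 with no mitochondrial limit, 28 at 200 genes, 27 with the young and old individuals left out and 34 with at least 30 UMIs. With at least 30 UMIs and the young and old individuals left out, 329 genes passed against alpha beta T cells, 390 against cytotoxic lymphocytes, 0 by *Trdv4* and 16 by strain. The class contrast by strain (13) gave 2 without those individuals and 3 with both changes, and alpha beta cells by strain (28) gave 7 without them. The other settings kept each sum of higher and lower genes within 1.5 times, but genes lower than in alpha beta T cells (35) numbered 18 with at least 3 cells per mouse, and genes lower in C57BL/6J (2) numbered 4 with at least 3 or at least 10 cells. With no replicate block, mouse being left out of the fit, 69 genes passed against alpha beta T cells (60 higher and 9 lower, against 65 and 35), 102 against cytotoxic lymphocytes and 0 by *Trdv4*.

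The rapamycin difference reached the smallest p the design allows (exact 0.0286) with at least 2 receptor UMIs (25.4 points), with 0 *Trac* (25.7) and at 200 genes (27.03). It ran from 20.7 to 32.5 with 1 mouse left out in turn. With mice paired by their number, which is a label only, the mean difference was 26.6 (exact p = 0.25). The age difference ran from 9.09 to 17.97 with 1 mouse left out and was 0.228 without rapamycin mice. The strain difference in share of T cells turned to -0.786 with 0 *Trac*. Of 547 values of single genes under alternatives, 503 kept their direction and call, 44 lost the call and 0 turned; *H2-Q4* lost it in 10 settings, *AW112010* and *Tmem176a* by strain in 7 each. The causes were not tested.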

Other observations

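Of 16 genes of lipid and oxidative metabolism with at least 30 UMIs, 2 were higher in gamma delta than in alpha beta T cells, *Plin2*, which coats lipid droplets, and *Pfkp*, a glycolytic enzyme, and 0 lower, with a median log2 difference of -0.26. Of 7 proliferation genes 0 were called, with a median of -0.94. Over all genes of that fit the median was -0.17, and 2.55% were called higher and 2.85% lower. Of the recirculation genes *S1pr1*, which lets lymphocytes leave tissue, fell by 2.43 on the log2 scale, and 4 others of the 5 tested were not called, with a list median of -1.05.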
